A study of Mus musculus with 8 samples.

Results

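The vascular endothelial growth factor (VEGF) family was examined in single-cell transcriptomes of mouse lung after cigarette smoke (CS) or room air (RA). The members were chosen by their roles and are 9 of the 33,027 genes in the matrix. They comprise 4 ligands (Vegfa, Vegfb, Vegfc and Vegfd), 3 receptor tyrosine kinases (Kdr, Flt1 and Flt4) and 2 co-receptors (Nrp1 and Nrp2). All 9 were found in the matrix. Alveolar type 1 (AT1) cells were taken as the main source of ligand, and 5 endothelial types as the receiving cells.

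All 8 mice were Sftpc-CreERT2-mTmG animals on a C57BL/6 background, in which tamoxifen labels cells that express the surfactant gene Sftpc. The Sftpc promoter, which is active in alveolar type 2 (AT2) cells, drives this Cre, and controls carry it too. Both groups received tamoxifen at 8 to 10 weeks of age, after which littermates were assigned to smoke from 3R4F reference cigarettes (4 mice) or to room air (4 mice) for 10 months. Right lungs were digested with collagenase and elastase, cells positive and negative for the leukocyte antigen CD45 were separated on magnetic beads, and the fractions were recombined with CD45-negative cells in large excess. Shares of cells therefore follow the mixing, and levels are given per cell.

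VEGF signalling maintains the alveolar capillary bed. Vegfa, made mostly by AT1 cells in the adult alveolus, binds Kdr (VEGFR2), which transmits the main signal to endothelium, and Flt1 (VEGFR1), which binds it tightly and signals weakly. Vegfb binds Flt1, Vegfc and Vegfd bind Flt4 (VEGFR3), and neuropilins present the ligands to the receptors and also bind class 3 semaphorins. Aerocytes are the capillary cells that lie against AT1 cells, and general capillary (gCap) cells are the progenitor-like capillary cells between them.

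On GRCm38 (GENCODE M21), the ligand genes lie at chr17:46016993-46032369 (Vegfa), chr19:6982473-6987651 (Vegfb), chr8:54077606-54187096 (Vegfc) and chrX:164373378-164402650 (Vegfd). The receptor genes lie at chr5:75932827-75978458 (Kdr), chr5:147561604-147726011 (Flt1) and chr11:49609263-49652739 (Flt4), and the co-receptor genes at chr8:128358604-128503363 (Nrp1) and chr1:62703285-62818695 (Nrp2). Vegfa, Vegfb, Kdr and Flt1 are on the minus strand and the rest on the plus strand. The matrix sums transcripts per gene symbol, so isoforms such as soluble Flt1 cannot be told apart in it. The 250 bases before the RefSeq start site (GRCm38.p6) are shown for the ligand and the receptor with the highest levels. These are Vegfa in AT1 cells and Kdr in aerocytes, and neither passed the test between the groups given below. Capitals mark GGAA or TTCC, the core letters bound by ETS factors of endothelium, chosen after the sequences were seen. The Vegfa window is chr17:46032378-46032627 and the Kdr window chr5:75978456-75978705, both read from the minus strand.
Vegfa: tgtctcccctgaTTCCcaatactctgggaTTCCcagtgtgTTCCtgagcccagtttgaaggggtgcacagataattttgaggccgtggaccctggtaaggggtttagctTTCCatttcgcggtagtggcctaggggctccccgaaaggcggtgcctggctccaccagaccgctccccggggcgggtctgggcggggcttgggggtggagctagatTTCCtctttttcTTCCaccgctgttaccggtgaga
Kdr: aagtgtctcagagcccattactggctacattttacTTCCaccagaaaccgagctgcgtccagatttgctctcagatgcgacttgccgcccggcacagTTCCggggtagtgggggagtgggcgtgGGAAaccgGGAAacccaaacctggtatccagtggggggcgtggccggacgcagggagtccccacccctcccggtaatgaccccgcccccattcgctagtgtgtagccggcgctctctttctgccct
The Vegfa window holds 6 such matches and the Kdr window 4, and 93.4% of 32,851 promoters hold at least 1. The core of the hypoxia response element is ACGTG or GCGTG. On either strand ACGTG is in neither window shown, while GCGTG, searched after the windows were seen, has 2 matches in the Kdr window and 0 in that of Vegfa, and is in 6 of the 10 member windows and 28.2% of all promoters. RefSeq lists 2 start sites for Vegfa and 1 for each other member, and the window of the second Vegfa start holds ACGTG, the only 1 of the 10 member windows to do so, against 16.6% of all promoters. The E-box CACGTG, which contains it, is in 0 of the 10 windows and in 6.02% of all. No match says only that these letters are not in this window.

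After leaving out cells that the authors labelled as multiplets or cell cycle, 40,074 cells remained, 20,330 from CS and 19,744 from RA mice, with 31,094,695 to 52,753,531 unique molecular identifiers (UMIs) per mouse. Some libraries stood apart. Both CS libraries labelled male (C2 and C5) held Xist, at 7.83 and 8.34 transcripts per 10,000, and both CS libraries labelled female (D2 and D5) held the Y-linked Ddx3y, at 0.925 and 1.08. In the 4 RA libraries these transcripts matched the label, so that each group held 2 libraries of each kind either way. Over all its cells, mouse F1 of the RA group had the lowest median depth, 4254 UMIs per cell, against 4557 to 6473 in the others. By type, F1 had the lowest depth in aerocytes (3991) and gCap cells (3024). In AT1 cells F1 did not, with 10923 in a range of 8346 to 17293 over the 8 mice. It was the lowest of the 8 mice in 20 of the 33 member-by-type values tested below in AT1 and endothelial cells, against 11555 of all 46212 gene-by-type values there, so the value without F1 is given beside a member's log2 difference that it moved by over 1.5 times. Between 50 and 173 AT1 cells, 249 and 754 aerocytes and 403 and 2075 gCap cells per mouse were averaged. Among the cells used, 190 barcodes occurred in more than 1 library. The type labels held against their markers for AT1 cells (6 of 6 markers highest in them), aerocytes (5 of 6), arterial cells (6 of 7), and gCap (4 of 6), venous (4 of 6) and lymphatic cells (4 of 6). The 6 gCap markers summed to 58.3 to 65.9 in gCap cells of CS mice and 66.3 to 74.0 in those of RA mice, with 1 of the 6 called lower, and the 6 AT1 markers to 277 to 323.8 and 323.6 to 361 in AT1 cells, with 0 called. Their part in the results was not tested.

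The members divided the lung between them. Levels are transcripts per 10,000, averaged over the cells of a type in a mouse, over the 17 cell types with at least 20 cells in every mouse. They are descriptive, since the types were clustered on the same transcripts. Vegfa was highest in AT1 cells, Vegfc in venous cells and Vegfd in alveolar fibroblasts. Kdr and Nrp1 were highest in aerocytes, Flt1 in venous cells, and Flt4 and Nrp2 in lymphatic cells. Vegfb had no type that stood out. With UMIs summed per mouse, or with cells of at most 5% mitochondrial transcripts only, each level stayed within 1 SD of the value given and the leading type of each member remained the same.

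**Figure D1:**
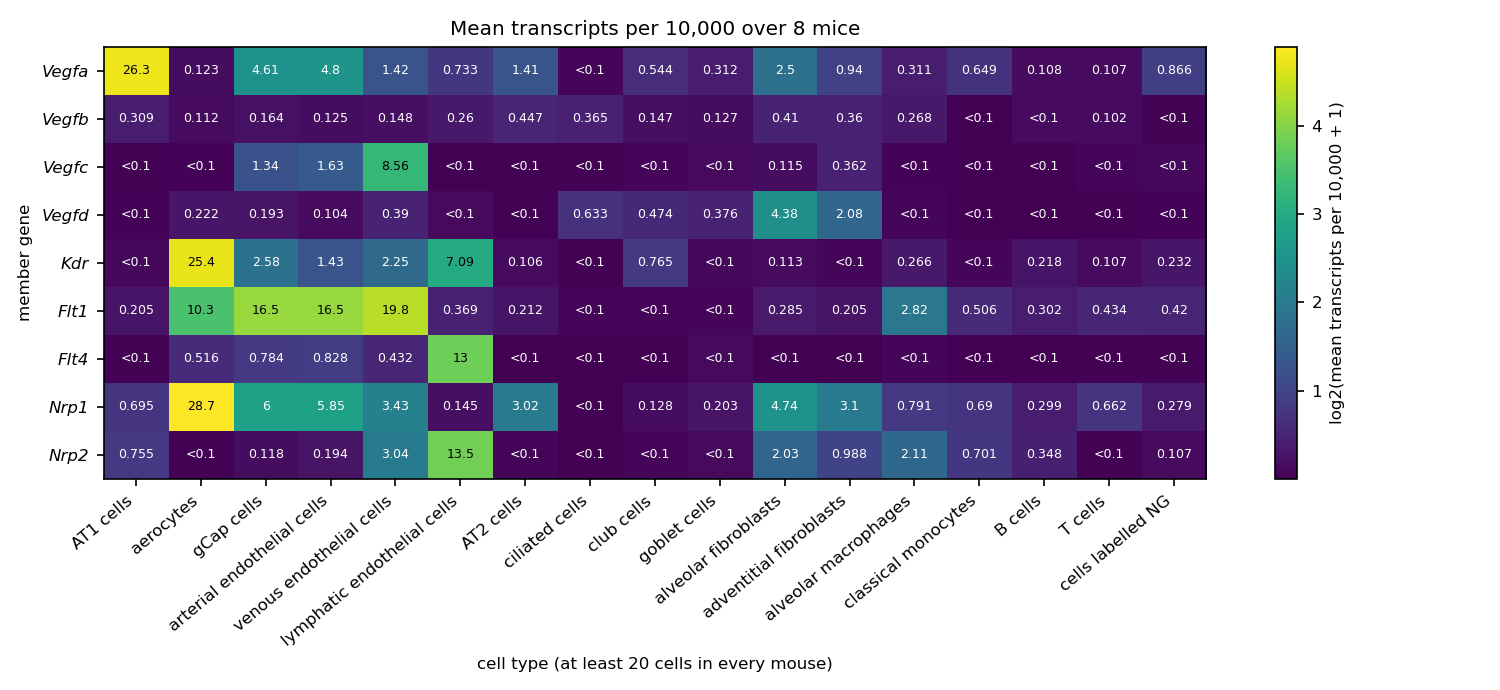
Mean transcripts per 10,000 of the 9 members (rows) in 17 cell types (columns), over 8 mice, with colour on a log2 scale and values under 0.1 written as such. Vegfa stands at 26.3 in AT1 cells, and Kdr and Nrp1 at 25.4 and 28.7 in aerocytes.

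Vegfa, the ligand of both Kdr and Flt1, reached 26.3 ± 5.85 in AT1 cells (SD, n = 8 mice). It was found in 99.7% of AT1 cells (median depth 10416 UMIs), against 4.41% of B cells (median depth 3880 UMIs). The share in B cells serves here and below as a reference only, since free RNA had been removed and depth differs between types. Arterial cells came next at 4.80 ± 0.938 (SD, n = 8), 5.48-fold below AT1 cells, and gCap cells at 4.61 ± 0.942 (SD, n = 8). The order of arterial and gCap cells was not resolved, since arterial cells were higher in 4 of 8 mice. AT1 cells exceeded gCap cells by 5.21- to 6.11-fold in each of the 8 mice, including F1, and AT2 cells, which held 1.41 ± 0.109 (SD, n = 8), by 10.6- to 24.6-fold. Aerocytes were nearly devoid of Vegfa, at 0.123, with a transcript in 5.73% of cells, close to the share in B cells. The capillary types thus differed, since gCap cells held more than aerocytes in 8 of 8 mice. AT1 cells were 2.55% of the cells of a mouse (median of 8) and held 43.1% of its Vegfa UMIs, with 29.5% in gCap cells, which were 24.2% of the cells.

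Vegfa in AT1 cells did not pass the test between the groups. The CS mice held 34.6 (C2), 28.1 (C5), 27.8 (D2) and 28.2 (D5), and the RA mice 14.0 (F1), 24.6 (F3), 24.6 (M1) and 28.3 (M3). The groups overlapped only through M3, with C2 set apart above and F1 below. The means were 29.7 ± 3.29 and 22.9 ± 6.20 (SD, n = 4 each), and the log2 difference was 0.40 (95% interval 0.02 to 0.77, limma adjusted p = 0.257, exact two-sided permutation p = 0.114, for which 0.0286 is the smallest value that 4 mice against 4 allow). Without F1 the log2 difference was 0.19. Between 2264 and 4540 Vegfa UMIs per mouse stood behind these values. In AT1 cells 4 members passed the filter of 10% of cells, and 0 of 4 were called at an adjusted p of 0.05, against 2.38% of the 8,873 genes tested. Vegfa alone had an unadjusted p under 0.05, as did 17.6% of all genes. Vegfb was 0.323 in CS and 0.295 in RA mice, Nrp1 0.624 and 0.765, and Nrp2 0.862 and 0.648.

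Vegfa was called in none of the 18 types in which it passed the filter. In gCap cells the CS mice held 4.81 to 5.81 and the RA mice 2.68 (F1), 4.03 (F3), 4.34 (M1) and 5.08 (M3). The groups overlapped through M3, and the log2 difference was 0.32 (95% interval -0.00 to 0.64, limma adjusted p = 0.145), or 0.17 without F1. In arterial cells the difference was 0.23 (adjusted p = 0.526), or 0.09 without F1. In alveolar fibroblasts Vegfa averaged 2.97 ± 0.708 under CS and 2.03 ± 0.238 under RA (SD, n = 4 each), which differed by 0.38 on the log2 scale (adjusted p = 0.114). In AT2 cells, the neighbours of AT1 cells in the epithelium, Vegfa was 1.43 and 1.39. A test of whether smoke acted differently on AT1 and AT2 cells gave a difference of log2 differences of 0.37 (95% interval -0.13 to 0.87, adjusted p = 0.543), or 0.18 without F1. Nrp1, at 0.624 against 0.765 in AT1 cells and 3.17 against 2.87 in AT2 cells, gave -0.25 (adjusted p = 0.321), or -0.16 without F1. Of the 4 members tested 0 passed, against 0.94% of all genes. At an unadjusted p under 0.05 were 1 member and 1352 of all 10,102 genes.

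Vegfb, a ligand of Flt1 that does not bind Kdr, was low throughout. It was highest in AT2 cells, at 0.447 ± 0.0874 (SD, n = 8), followed by alveolar fibroblasts at 0.410 and ciliated cells at 0.365, and none of these neighbours in the order was resolved. AT2 cells were higher than alveolar fibroblasts in 4 of 8 mice. Vegfb was lower in every CS mouse than in every RA mouse in adventitial fibroblasts, at 0.240 to 0.364 against 0.376 to 0.487, without passing the test (limma adjusted p = 0.126), and 6.24% of the 9,406 genes tested there lay below in the same way.

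Vegfc, the main ligand of Flt4, was a venous transcript within these lungs. Venous cells held 8.56 ± 1.61 (SD, n = 8), with a transcript in 81.0% of cells (median depth 5529 UMIs) against 0.643% of B cells. Arterial cells held 1.63 and gCap cells 1.34, which were not resolved from each other, and venous cells exceeded gCap cells by 5.44- to 8.20-fold in each of 8 mice. Lymphatic cells, which carry its receptor, held almost none of it, at most 0.0426 in any mouse. Non-classical monocytes also held Vegfc, with a transcript in 26.5% of 370 cells (median depths by mouse 3540 to 6225 UMIs). Smoke left no called difference, with 8.61 ± 1.99 in CS and 8.51 ± 1.44 in RA venous cells (SD, n = 4 each), which differed by 0.01 on the log2 scale (95% interval -0.37 to 0.39, limma adjusted p = 0.991), or by -0.11 without F1.

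Vegfd, the other ligand of Flt4, was highest in alveolar and adventitial fibroblasts, followed by ciliated cells. Alveolar fibroblasts held 4.38 ± 1.14 and adventitial fibroblasts 2.08 ± 0.289 (SD, n = 8), and alveolar exceeded adventitial fibroblasts in 8 of 8 mice. Ciliated cells held 0.633 ± 0.204 (SD, n = 8), with a transcript in 56.0% of cells (median depth 15659 UMIs) against 0.771% of B cells. The fibroblast levels were close between the groups, at 4.44 and 4.33 in alveolar and 2.08 and 2.08 in adventitial fibroblasts.

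In ciliated cells Vegfd was higher in CS mice. The CS mice held 1.01 (C2), 0.745 (C5), 0.704 (D2) and 0.734 (D5), and the RA mice 0.379 (F1), 0.471 (F3), 0.557 (M1) and 0.469 (M3). The groups did not overlap, and C2 stood above the rest. The means were 0.797 ± 0.140 and 0.469 ± 0.0727 (SD, n = 4 each), a 1.70-fold ratio, and the log2 difference of 0.29 (95% interval 0.17 to 0.41) passed the test (limma adjusted p = 0.0194, exact permutation p = 0.0286). Vegfd was the 1 member called of the 3 that passed the filter in ciliated cells, against 4.63% of 11,077 genes, 2.72% in this direction. With the sequencing lane as a block it did not pass (adjusted p = 0.0634), nor without D5 (0.0531) or M3 (0.0530). The summed level of 5 fibroblast markers in ciliated cells was 0.0244 to 0.0785 in CS and 0.0320 to 0.0646 in RA mice, ranges that overlap, with none of the 5 past the filter and Lum under 0.01 in every mouse. The 6 aerocyte markers summed to 1.66 to 1.93 in CS and 2.22 to 2.71 in RA mice in ciliated cells, without overlap, and the 1 past the filter, Emp2, was called lower. The part of these markers in the Vegfd difference was not tested.

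Kdr, the main signalling receptor, marked aerocytes. They held 25.4 ± 5.28 (SD, n = 8), with a transcript in 98.9% of cells (median depth 4506 UMIs) against 3.73% of B cells. Lymphatic cells followed at 7.09 ± 0.597 and gCap cells at 2.58 ± 0.437 (SD, n = 8), and venous cells were at 2.25 ± 0.507, below gCap cells in 7 of 8 mice with overlapping ranges. Aerocytes exceeded gCap cells by 6.95- to 12.0-fold in each mouse. Outside endothelium, a Kdr transcript was found in 87.1% of 1132 mesothelial cells (median depths by mouse 11846 to 18213 UMIs). Averaged over cells, Kdr stood at 2.32 there, against 2.52 in gCap and 2.22 in venous cells. Mesothelial cells were not among the types ranked, since C2 held only 9 of them. A Kdr transcript was also found in 67.0% of club cells (median depth 30864 UMIs), where its level was 0.765.

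In CS mice Kdr was higher in gCap cells. In gCap cells the CS mice held 3.03 (C2), 3.11 (C5), 2.74 (D2) and 2.95 (D5), and the RA mice 1.93 (F1), 2.33 (F3), 2.25 (M1) and 2.27 (M3). The groups did not overlap, and the mice of each group lay close together. The means were 2.96 ± 0.160 and 2.19 ± 0.178 (SD, n = 4 each), a 1.35-fold ratio, and the log2 difference of 0.31 (SE 0.068, 95% interval 0.16 to 0.46) passed the test (limma adjusted p = 0.0301, exact permutation p = 0.0286). Kdr and Nrp1 were the 2 members called in gCap cells of the 6 that passed the filter, against 10.3% of 6,556 genes, 6.28% in this direction. With the sequencing lane as a block Kdr did not pass (adjusted p = 0.0751), as was so of every gene in gCap cells, where 672 genes were called without the block and 0 with it (2121 at an unadjusted p under 0.05). Kdr also did not pass without C2 (0.0873), D2 (0.0679), D5 (0.0903) or F3 (0.0679), and it passed without F1 (0.0289). Its log2 difference was 0.27 to 0.34 over the 8 fits that each left out 1 mouse. Over all genes in gCap cells, 29 were called without C2, 37 without D2, 0 without D5 and 35 without F3.

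Aerocytes, which hold far more Kdr and Nrp1, have 6 markers whose sum in gCap cells came to 1.79 to 2.76 in CS and 2.56 to 2.84 in RA mice, overlapping ranges, and neither of the 2 that passed the filter was called. The 6 lymphatic markers summed to 2.58 to 3.71 in CS and 4.56 to 5.49 in RA mice in gCap cells, without overlap, and the 1 past the filter, Lyve1, was called lower. Lyve1 made up nearly all of this sum, at 4.00 in gCap cells over the 8 mice, and was higher in arterial (13.9) and venous cells (11.8) than in lymphatic cells (5.41), while the other markers, Prox1 among them, lay between 0.00890 and 0.0394 in gCap cells. The 5 markers of all endothelium summed to 57.6 to 63.0 and 58.2 to 64.3, overlapping, with 1 of the 5, Cldn5, called lower. The part of other cell types in the Kdr and Nrp1 differences was not tested.

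In the other endothelial types Kdr did not pass. In venous cells the CS mice held 2.60 to 2.77 and the RA mice 1.54 to 2.16, and the groups did not overlap (log2 difference 0.40, 95% interval 0.19 to 0.60, limma adjusted p = 0.111). In arterial cells they held 1.47 to 1.98 and 0.936 to 1.46, again without overlap (0.34, 95% interval 0.11 to 0.58, adjusted p = 0.167). The 7 arterial markers also separated the groups in arterial cells, at 19.1 to 24.4 in CS and 11.9 to 18.4 in RA mice with 0 called, and their part in the Kdr and Flt1 values there was not tested. In aerocytes the CS mice held 26.3 to 30.5 and the RA mice 13.4 (F1), 23.3 (F3), 26.9 (M1) and 26.5 (M3). Here the groups overlapped, and the log2 difference of 0.36 (95% interval -0.05 to 0.78, adjusted p = 0.251) became 0.14 without F1. In lymphatic cells the means were 7.37 ± 0.295 and 6.80 ± 0.727 (SD, n = 4 each), with a log2 difference of 0.11 (adjusted p = 0.844). The difference between aerocytes and gCap cells in the log2 difference of Kdr was 0.05 (95% interval -0.43 to 0.53, adjusted p = 0.963), or -0.13 without F1. Between these capillary types 0 of the 6 members tested differed in their response, against 0.0672% of all genes. At an unadjusted p under 0.05 were 0 of the 6 and 840 of all 7,442 genes.

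**Figure D2:**
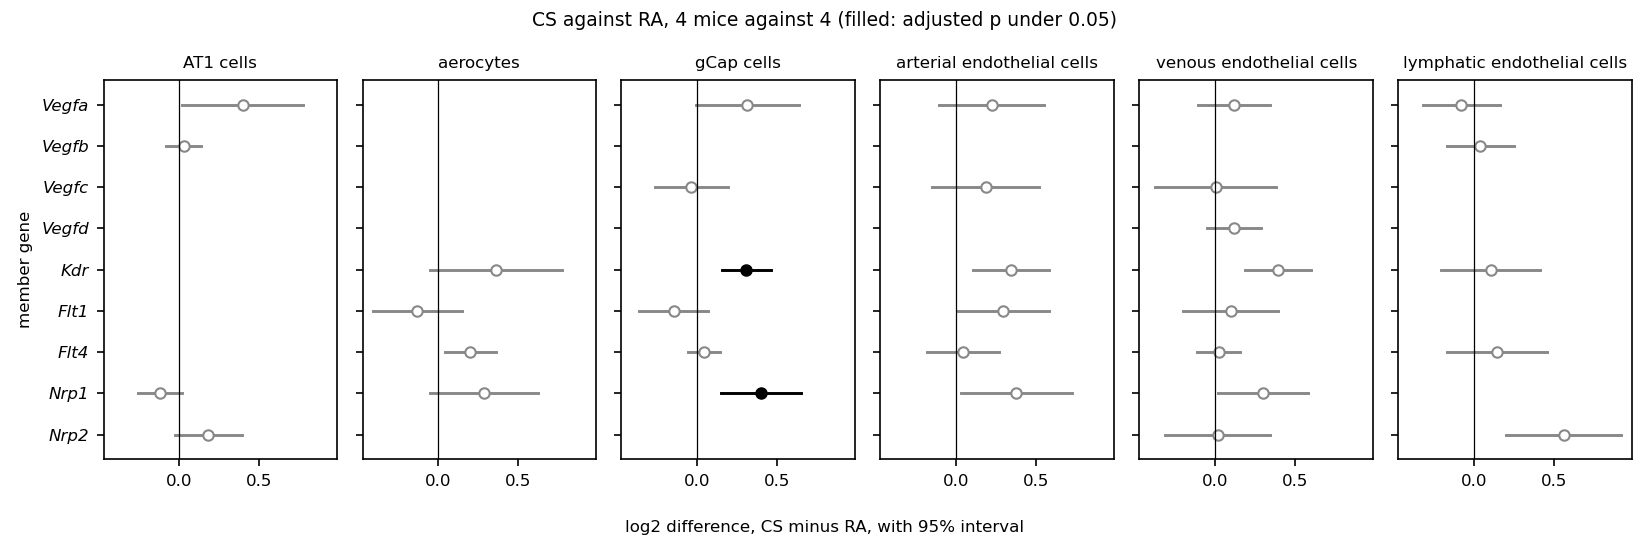
Log2 difference of CS minus RA with its 95% interval for each member that passed the filter, in AT1 cells and 5 endothelial types, 4 mice against 4, with filled black symbols for an adjusted p under 0.05. The filled symbols are Kdr and Nrp1 in gCap cells, and 28 of the 33 values lie above 0, as do 52.9% of those of all genes in these 6 types.

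Flt1, which binds Vegfa without strong signalling, was spread over the blood endothelium. Venous cells held 19.8 ± 1.64, arterial cells 16.5 ± 2.39, gCap cells 16.5 ± 1.28 and aerocytes 10.3 ± 1.44 (SD, n = 8). Venous cells did not lead in every mouse, since arterial cells were higher in D5 (20.6 against 18.8) and gCap cells in F1 (18.5 against 17.8). In the other mice venous cells were the highest. Arterial and gCap cells were not resolved, and gCap cells exceeded aerocytes in 8 of 8 mice, the reverse of Kdr. Lymphatic cells held 0.369, with a transcript in 6.25% of cells (median depth 4851 UMIs) against 5.53% of B cells. Alveolar macrophages held 2.82 ± 0.569 (SD, n = 8) and a transcript in 70.6% of cells (median depth 5246 UMIs), and Flt1 was found in 43.5% of the non-classical monocytes.

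Flt1 was not called in any of these types. In gCap cells the CS mice held 14.7 to 16.5 and the RA mice 16.3 to 18.5, overlapping, with a log2 difference of -0.14 (95% interval -0.36 to 0.07, limma adjusted p = 0.299). In aerocytes the difference was -0.13 (adjusted p = 0.534). In arterial cells the CS mice held 16.4 to 20.6 and the RA mice 13.8 to 15.7 without overlap (0.29, 95% interval 0.01 to 0.58, adjusted p = 0.327). In arterial cells 0 of 6 members were called, against 0.669% of 7,920 genes, with 3 of the 6 and 14.8% of all genes at an unadjusted p under 0.05.

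The ratio of Flt1 to Kdr was taken in each mouse after these values were seen, as a description with no test. In gCap cells it was 5.04 to 5.47 in CS and 7.21 to 9.56 in RA mice. In venous cells it was 7.18 to 8.38 and 9.43 to 11.6, so that in both types the ratio was lower in every CS mouse. Kdr alone was higher in every CS mouse in both types, so the ratio is not a separate result. In aerocytes, a type with more Kdr than Flt1, the ratios of 0.305 to 0.392 and 0.356 to 0.777 overlapped, as did those in arterial cells, 8.56 to 13.1 and 10.1 to 16.2. In lymphatic cells, which held little Flt1, the ratios of 0.0109 to 0.113 in CS and 0.0106 to 0.0763 in RA mice overlapped as well.

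Flt4, the receptor of Vegfc and Vegfd, was a lymphatic transcript, at 13.0 ± 0.879 (SD, n = 8) with a transcript in 96.7% of cells against 0.943% of B cells. Arterial cells followed at 0.828 and gCap cells at 0.784, not resolved from each other, and lymphatic cells exceeded arterial cells by 11.6- to 23.6-fold in each mouse. In lymphatic cells the CS mice held 13.1 to 14.4 and the RA mice 11.9 to 12.6, without overlap, with a log2 difference of 0.15 (95% interval -0.17 to 0.46, limma adjusted p = 0.780). In aerocytes the groups overlapped at means of 0.623 ± 0.142 (CS) and 0.409 ± 0.121 (RA; SD, n = 4 each), a log2 difference of 0.20 (95% interval 0.05 to 0.36, adjusted p = 0.131). In lymphatic cells 0 of 5 members were called, as was 0% of 8,281 genes, with 1 of the 5 and 782 of all genes (9.44%) at an unadjusted p under 0.05. In aerocytes 0 of 4 were called, against 1.96% of 6,876 genes, with 1 of the 4 and 24.5% of all genes at an unadjusted p under 0.05. In venous cells 0 of 8 were called, against 0.13% of 7,706 genes, with 2 of the 8 and 15.3% of all genes at an unadjusted p under 0.05.

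Nrp1, the co-receptor that partners Kdr, was highest in the same cells as Kdr. Aerocytes held 28.7 ± 4.74 and gCap cells 6.00 ± 1.17 (SD, n = 8), with arterial cells at 5.85, higher than gCap cells in 4 of 8 mice. Alveolar fibroblasts held 4.74 and AT2 cells 3.02, where a transcript was found in 88.4% of cells (median depth 11883 UMIs) against 6.47% of B cells. AT2 cells exceeded AT1 cells, at 0.695, by 2.99- to 6.07-fold in each mouse.

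In gCap cells Nrp1 was higher in CS mice. The CS mice held 7.17 (C2), 6.42 (C5), 6.99 (D2) and 7.19 (D5), and the RA mice 4.07 (F1), 6.04 (F3), 4.76 (M1) and 5.34 (M3). The groups did not overlap, with F3 and C5 the nearest. The means were 6.94 ± 0.359 and 5.05 ± 0.839 (SD, n = 4 each), a 1.37-fold ratio, and the log2 difference of 0.40 (SE 0.112, 95% interval 0.15 to 0.65) passed the test (limma adjusted p = 0.0493, exact permutation p = 0.0286). This call lay at the threshold. It was lost with the lane block (adjusted p = 0.0832) and without any 1 of the 8 mice, C2, C5, D2, D5, F1, F3, M1 or M3 (0.0529 to 0.126). It was also lost with labelled sex as a term (0.0617), with median centring (0.0513) and with the gene-span correction given below (0.116).

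In aerocytes Nrp1 was 30.2 to 32.6 in CS mice and 17.5 (F1), 28.9 (F3), 28.8 (M1) and 28.8 (M3) in RA mice. The groups did not overlap, and F1 stood far below the other RA mice. The log2 difference was 0.29 (95% interval -0.05 to 0.63, limma adjusted p = 0.262) and became 0.12 without F1. In arterial cells Nrp1 gave 0.38 (adjusted p = 0.302), or 0.22 without F1, and in venous cells 0.30 (adjusted p = 0.303).

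Nrp2, the co-receptor that partners Flt4, was highest in lymphatic cells, at 13.5 ± 3.36 (SD, n = 8). Venous cells followed at 3.04 ± 0.632, 25.7-fold above gCap cells. Venous cells thus held both neuropilins, with Nrp1 at 3.43, whereas lymphatic cells held little Nrp1 (0.145) and aerocytes little Nrp2 (at most 0.0301 in any mouse). Alveolar macrophages held 2.11 and alveolar fibroblasts 2.03, not resolved from each other. Nrp2 was also found in 69.3% of mesothelial cells and in 64.4% of the 101 cells that the authors labelled M (median depth 6437 UMIs in the 1 mouse with at least 20 of them), against 12.4% of B cells. AT1 cells held 0.755, above AT2 cells in 8 of 8 mice.

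In adventitial fibroblasts Nrp2 was higher in CS mice. The CS mice held 1.26 (C2), 1.24 (C5), 1.10 (D2) and 1.18 (D5), and the RA mice 0.608 (F1), 0.948 (F3), 0.861 (M1) and 0.699 (M3). The groups did not overlap. The means were 1.20 ± 0.0721 and 0.779 ± 0.154 (SD, n = 4 each), a 1.54-fold ratio, and the log2 difference of 0.31 (SE 0.073, 95% interval 0.15 to 0.47) passed the test (limma adjusted p = 0.0438, exact permutation p = 0.0286). Nrp2 was the 1 member called of 6 in adventitial fibroblasts, against 3.1% of 9,406 genes, 1.91% in this direction. It was lost with the lane block (adjusted p = 0.122), with a term for sex (0.0514 by label, 0.0502 by Xist and Ddx3y) and without any 1 of the 8 mice (0.0510 to 0.120). The 5 endothelial markers summed to 1.85 to 2.45 in these cells in CS and 1.44 to 3.80 in RA mice, overlapping. The 6 venous markers summed to 10.35 to 14.0 and 8.17 to 10.38, which overlap narrowly. Of the venous markers, Slc6a2 stood at 0.118 in adventitial fibroblasts, against 15.9 in venous cells. The part of these markers in the result was not tested.

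In lymphatic cells, with 24 to 103 cells per mouse, Nrp2 showed the largest log2 difference of any member in AT1 or endothelial cells and did not pass. The CS mice held 14.7 (C2), 15.6 (C5), 17.1 (D2) and 17.2 (D5), and the RA mice 7.78 (F1), 12.8 (F3), 12.6 (M1) and 9.98 (M3). The groups did not overlap, and the log2 difference was 0.56 (95% interval 0.20 to 0.92, limma adjusted p = 0.351), or 0.43 without F1. None of the 8,281 genes passed in this type.

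**Figure D3:**
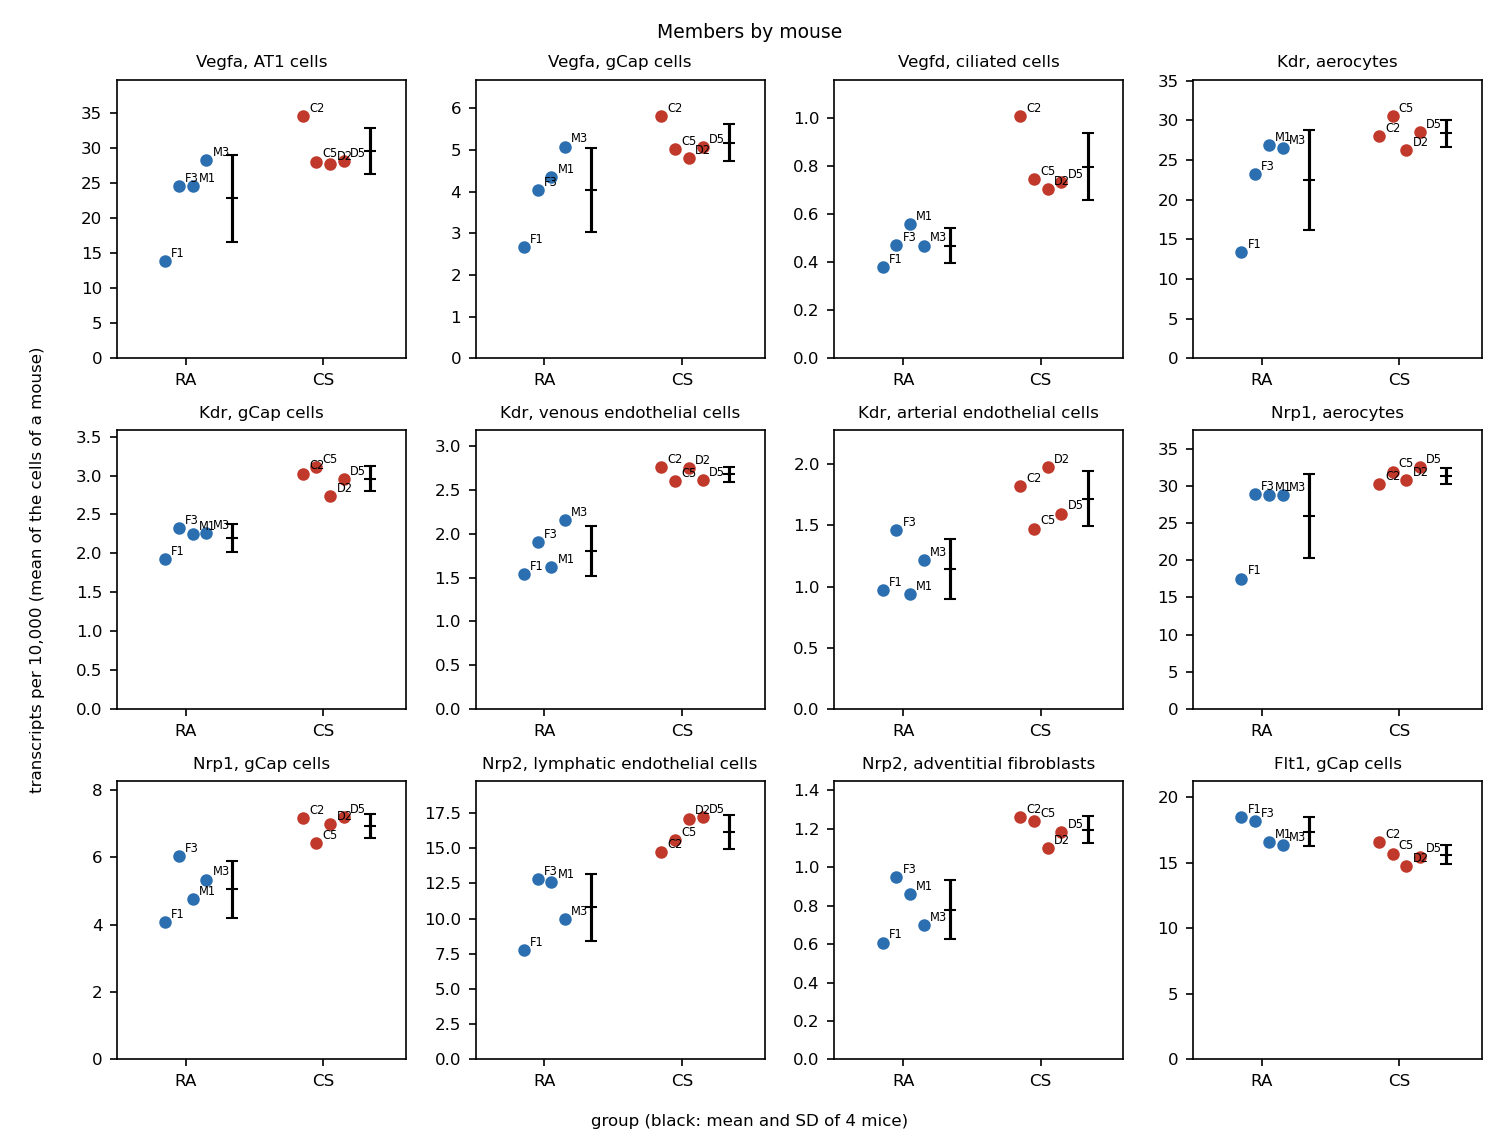
Transcripts per 10,000 of members in chosen cell types for each mouse (points, RA blue, CS red, axes from 0), with the mean and SD of 4 mice in black. Kdr and Nrp1 in gCap cells, Vegfd in ciliated cells and Nrp2 in adventitial fibroblasts separate the groups, while Vegfa in AT1 cells and Kdr in aerocytes overlap and F1 lies lowest.

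Over all 22 types tested, 96 of the 198 member-by-type values passed the filter, and 4 were called, all higher in CS, against 1.23% of all gene-by-type tests. In the 16 types other than AT1 cells and endothelium, 2 of 63 were called, against 0.823%. The mean log2 value was higher in CS for 70 of the 96 and lower for 26, where 54.2% of all gene-by-type values were higher. Members share mice and F1 was often lowest, so the count is a description. In AT1 and endothelial cells, every CS mouse lay above every RA mouse for 8 of the 33 values and below for 0. These were Kdr and Nrp1 in gCap cells, where 13.6% of all genes lay above without overlap and 11% below, and Kdr and Flt1 in arterial cells (4.32% and 4.55%). The others were Kdr in venous cells (5.87% and 3.54%), Nrp1 in aerocytes (8.71% and 7.1%), and Flt4 and Nrp2 in lymphatic cells (2.97% and 2.13%). In AT1 cells no member separated the groups (5.77% and 5.17%). In the other 16 types, 5 of the 63 values lay above and 2 below without overlap, against 5.78% and 4.42% of all gene-by-type values there. These counts share the same 8 mice.

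To place ligand beside receptor, the level of Vegfa in AT1 cells was multiplied by that of Kdr in each endothelial type of the same mouse, as a description with no test. The product with aerocytes was 730 to 970 in CS mice and 187 (F1) to 751 in RA mice, and the groups overlapped. It was 76.0 to 105 and 27.0 to 64.2 with gCap cells, 41.5 to 62.9 and 13.5 to 35.9 with arterial cells, and 73.2 to 95.7 and 21.5 to 61.3 with venous cells, each without overlap. Kdr alone also separated the groups in these types, so the products are not separate results. No share over other ligand-receptor products was taken. With lymphatic cells it was 200 to 249 and 91.0 to 222, which overlapped. With Kdr as the receptor, the product with aerocytes was thus the largest in both groups. All products share the Vegfa value of the mouse, and the value of F1 was the lowest in each. With Flt1 as the receptor, the product with gCap cells was 409 to 572 in CS and 258 to 463 in RA mice, which overlapped, as did those with aerocytes, venous and lymphatic cells. The mean Flt1 product was lower with aerocytes, at 291 in CS and 248 in RA mice, than with any other blood endothelial type. The product with arterial cells, 470 to 582 and 219 to 390, did not overlap, as was so of Flt1 alone there.

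**Figure D4:**
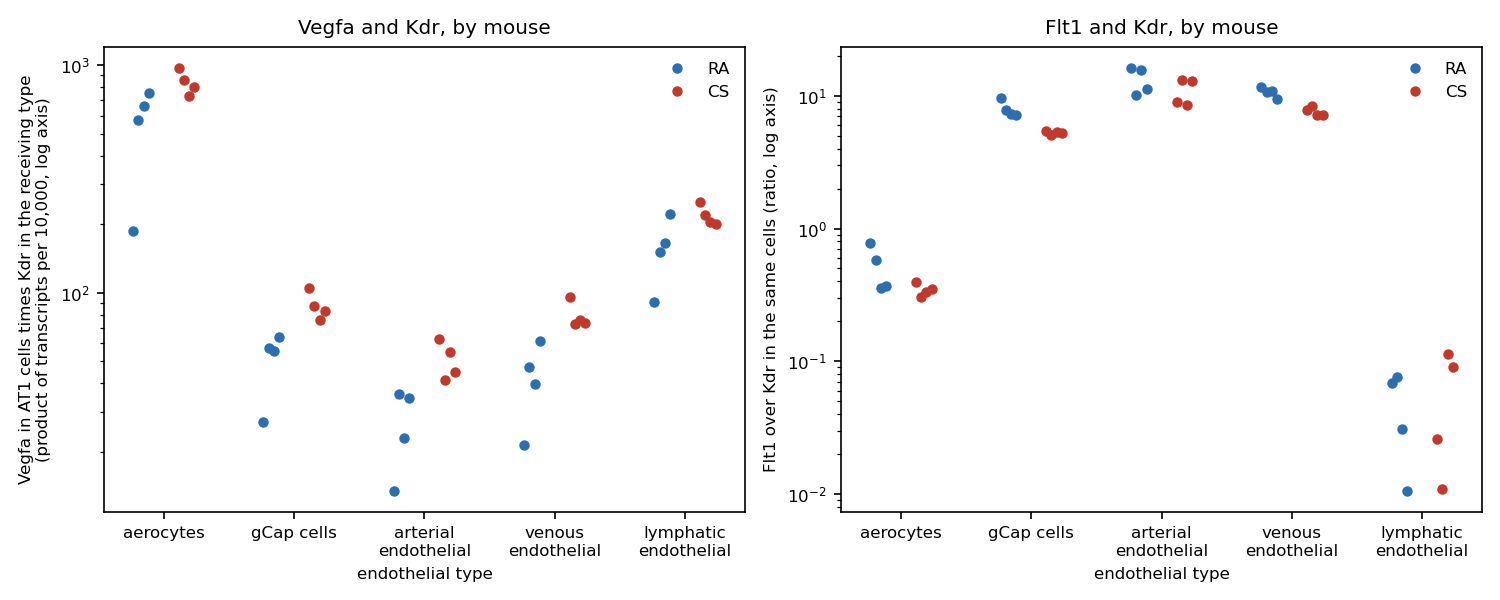
Left, Vegfa in AT1 cells times Kdr in 5 endothelial types for each mouse (log axis). Right, the ratio of Flt1 to Kdr in the same cells (log axis). RA mice are blue and CS mice red, and the ratio in gCap and venous cells is lower in every CS mouse, where Kdr alone is higher in every CS mouse.

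Other genes of the pathway were taken from a list of 95, grouped by role and fixed with earlier results of these data known. In gCap cells 67 passed the filter, and 6 rose and 2 fell in CS, 11.9% against 10.3% of all genes, a share near the background. The median log2 difference of the 67 was 0.08, against 0.01 over all genes. In AT1 cells 1 of 60 rose and 1 fell, 3.33% against 2.38% of all genes. In aerocytes 1 of 61 rose and 1 fell (3.28% against 1.96%). In arterial cells 1 of 72 rose and 1 fell (2.78% against 0.669%). The arterial gene that rose, Angpt2, passed the filter only through CS (16.1% of CS and 6.94% of RA cells), so this share carries that selection. The arterial gene that fell, Plaur, was no longer called whichever mouse was left out. In venous cells 0 of 72 were called, with 15 of them and 15.3% of all genes at an unadjusted p under 0.05, and in lymphatic cells 0 of 73, with 10 of them and 9.44% of all genes. Of these 14 calls, 3 held with the lane block. They are Hspb1 in AT1 cells and in aerocytes, and Angpt2 in arterial cells, the last with the selection named above. Of the 13 calls named below, Hspb1 in AT1 cells held without each mouse, and the other 12 were lost without at least 1, with highest adjusted p-values of 0.0825 to 0.177.

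Class 3 semaphorins bind neuropilins, plexins or both. Of these semaphorins and the plexins, 2 of the 7 tested in gCap cells were called, against 10.3% of all genes. In AT1 cells 1 of the 8 tested was called, against 2.38% of all genes. Sema3e in AT1 cells was 15.2 to 18.4 in CS and 8.39 to 13.1 in RA mice, without overlap (log2 difference 0.55, SE 0.135, limma adjusted p = 0.0439). Sema3c in gCap cells was 25.4 to 29.9 and 13.6 to 21.2, also without overlap (0.57, SE 0.142, adjusted p = 0.0383). Plxna4, a plexin co-receptor, was 2.91 and 2.11 in gCap cells (adjusted p = 0.0374). Epn2, an endocytic adaptor, and Myo6, a motor of endocytic vesicles, rose by 0.41 and 0.39 on the log2 scale in gCap cells. Ppp3ca, a catalytic subunit of calcineurin, rose by 0.42 in aerocytes and 0.30 in gCap cells.

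The genes that fell were Hspb1 and Plaur. Hspb1, a small heat shock protein phosphorylated downstream of Kdr and also induced by stress, was 5.08 to 6.39 in CS and 11.2 to 30.2 in RA aerocytes (log2 difference -1.55, SE 0.252, limma adjusted p = 0.0203, 0.0286 with the lane block). It also fell by 1.42 in gCap cells and by 0.93 in AT1 cells. Plaur, the urokinase receptor, which VEGF can induce, fell by 0.75 in gCap cells and by 0.65 in arterial cells. Angpt2, a Tie2 ligand that VEGF can also induce, rose in arterial cells, with 0.116 ± 0.0674 under RA and 0.522 ± 0.177 under CS (SD, n = 4 each) and a log2 difference of 0.44 (adjusted p = 0.0253, 0.0430 with the lane block). A transcript was found in 16.1% of CS and 6.94% of RA arterial cells. Angpt2 thus passed the filter only through the group where it was higher, and its call carries that selection.

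The size of the CS difference moved with the genomic span of a gene, from its first to its last annotated base. In gCap cells the median log2 difference was -0.08 for the 1310 genes of up to 10000 bases and 0.13 for the 1151 genes of over 100000 bases. Genes called higher there had a median span of 94318 bases and genes called lower 10115. Among the members, Flt1, whose difference in gCap cells was -0.14, spans 164408 bases, Nrp1 144760, Nrp2 115411, Vegfc 109491, Kdr 45632, Flt4 43477, Vegfd 29273, Vegfa 15377 and Vegfb 5179. With the trend removed, Kdr in gCap cells kept a log2 difference of 0.28 (limma adjusted p = 0.0480) and Vegfd in ciliated cells 0.29 (adjusted p = 0.0186), while the value of Nrp1 in gCap cells became 0.27 (adjusted p = 0.116) and that of Nrp2 in adventitial fibroblasts 0.22 (adjusted p = 0.132). The pathway genes named above as higher in CS span 231414 bases (Sema3e), 155988 (Sema3c), 443925 (Plxna4), 146699 (Myo6), 267604 (Ppp3ca), 62439 (Epn2) and 51300 (Angpt2). Those that fell span 1645 (Hspb1) and 13485 (Plaur). The pathway list gave fewer calls with the correction, as counted below. The part of span in the member and pathway differences was not tested beyond this.

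**Figure D5:**
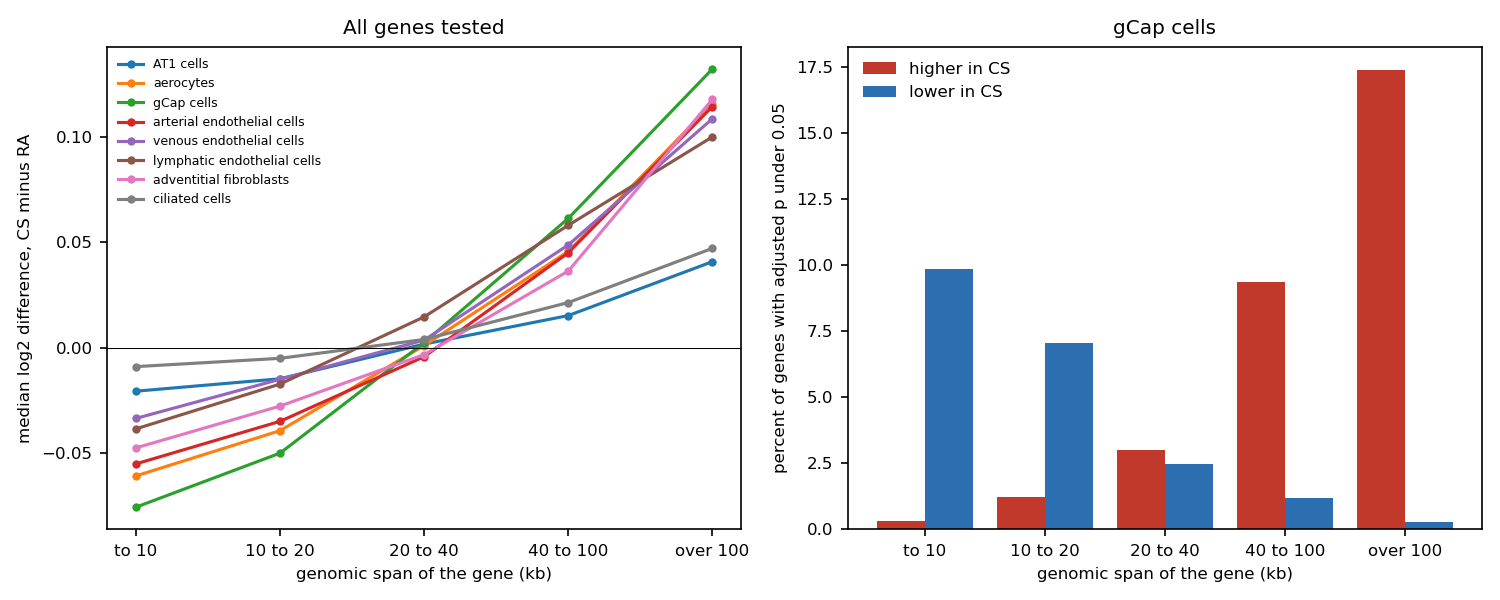
Left, median log2 difference of CS minus RA over all genes tested, by genomic span in kilobases, in 8 cell types. Right, the percent of genes in gCap cells called higher (red) or lower (blue) in CS in each class of span, where the called share of genes over 100 kilobases was 17.4% higher and 0.261% lower.

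The genes most like each member across the 17 types were found by Pearson correlation of log2 mean levels among 6,433 genes, as a description over types that share libraries. For Vegfa they were Ndst1 (r = 0.91), Arhgef26 (0.88) and Agrn (0.87), all highest in AT1 cells. For Kdr they were Ackr2, Ifi203-ps and Reep1 (0.96 each), all highest in aerocytes, and for Nrp1 Meis1 (0.91), Stard9 (0.91) and Slc16a9 (0.90), also in aerocytes. Flt1 was closest to Mcam (0.99), Parvb (0.97) and Hpgd (0.97), each highest in a different blood endothelial type. Vegfc was closest to Ano2 (0.98), Samd5 (0.98) and Slco1c1 (0.97) of venous cells, and Vegfd to Mxra8 (0.98), Astn2 (0.97) and Slit2 (0.96) of alveolar fibroblasts. Flt4 was closest to F8, Rmnd5b and Unc5b (0.97 each) and Nrp2 to Zfp423 (0.89), Pgm5 (0.85) and Adamts4 (0.85), all highest in lymphatic cells. For Vegfb, Nenf (0.88), Hmgn1 (0.87) and Ptms (0.87) were closest, and these peaked in 3 different types.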

How the data were processed

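Single-cell libraries (10x Genomics 3′ v3) of 8 mice were sequenced in 4 lanes, each with 1 CS and 1 RA mouse. Per the labels, reads were aligned with STAR 2.7.3a and counted with STARsolo on GRCm38.p6. The authors removed free RNA with SoupX, so the deposited matrix holds estimated counts of UMIs per gene and cell, and 1.28% of its values above 0 are whole to within 1e-06. Their filter was at most 5% mitochondrial transcripts, and in the deposited percent column 1574 of the cells used (3.93%) exceed it. Cell types are the authors' labels. Doublets were treated only by leaving out the 1025 cells that the authors called multiplets, and 7 cells called cell cycle.

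Each cell was scaled to 10,000 transcripts and averaged per type and mouse. A count model was not used, since the counts are estimates. CS and RA mice were compared with limma 3.58.1 (R 4.3.3) with a mean-variance trend on log2(mean + 1), which understates the change of low genes, for types with at least 20 cells in 3 or more mice per group and genes with a transcript in 10% or more of CS or of RA cells. P-values were adjusted over all genes of a type (Benjamini-Hochberg, threshold 0.05). Exact two-sided permutation tests over the 70 assignments of 8 mice stand beside single members. In simulated gCap data (6,556 genes, 100 of them changed), 81% of 1.5-fold and 100% of 2-fold changes were recovered. With 100 changed as well, the shares were 36% and 90% in AT1 data (8,873 genes) and 26% and 88% in arterial data (7,920 genes). Kdr and Nrp1 in gCap cells changed by less than 1.5-fold, a size that was not simulated. The shares do not cover leaving out a mouse, where the 672 gCap calls became 0 without D5. A mouse is 1 sample, and counts cover sampled molecules only.

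The labels place 1 CS and 1 RA mouse in each lane, which is a shared batch. Mice of one lane deviated from their group means with correlations of -0.27 to 0.39 over genes in gCap cells and -0.09 to 0.12 in AT1 cells, and no lane term is stated for the mouse single-cell comparison. The fit without the block is the main one, and the fit with it is printed where it changes a call. Named genes were the 9 members, up to 5 called genes in each direction of the 95-gene list, and the 3 genes most like each member. Members, lists and tests were chosen with earlier results of these data known. Alternatives were another pseudocount, filters on low genes, the lane block, sex, summed UMIs, median centring, at most 5% mitochondrial transcripts, cells without markers of another class and leaving out each mouse. A gene-span correction and a sex term by Xist and Ddx3y were added after the data were seen. Gene spans come from GENCODE M21 and promoters from RefSeq (10 windows for the 9 members). Ages, exposures and the CD45 mixing are as the study's methods give them.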

Additional observations from a re-analysis of the deposited data

Results flagged for a closer look

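Among 70 groups of 4 mice examined for the members, 6 held a mouse far from the other 3, where chance sets apart about 1 in 20 groups, or 3.5. In RA mouse F1, Nrp1 in aerocytes was 17.5 against 28.8 to 28.9 in the other RA mice, and Vegfc in arterial cells was 2.57 against 1.12 to 1.14. In CS mouse C2, Vegfa in AT1 cells was 34.6 against 27.8 to 28.2, Vegfd in ciliated cells was 1.01 against 0.704 to 0.745, and Flt4 in venous cells was 0.561 against 0.389 to 0.417. In CS mouse D5, Flt4 in arterial cells was 1.13 against 0.742 to 0.779. F1 and C2 were sequenced in the same lane, and the part of the lane in these values was not tested. By the test of the difference in response to smoke between types (limma), 0 of the 6 members tested between aerocytes and gCap cells and 0 of the 4 tested between AT1 and AT2 cells were called, with 0 and 1 (Nrp1) at an unadjusted p under 0.05. Over all genes 5 of 7,442 and 95 of 10,102 were called, with 840 and 1352 at an unadjusted p under 0.05.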

How the results depend on the processing

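The direction of the 4 called member differences was the same in every alternative. The groups did not overlap for any of the 4, so leaving out a mouse could not reverse it. Lane and sex were balanced between the groups, so those terms could not reverse it either. Of the 2 members called in gCap cells, Kdr alone was called with labelled sex as a term, with centring on the median gene and with the gene-span correction (1 member in each), and 0 with no gene filter and with the lane as a replicate block. Over all genes in gCap cells, 0 were called with no filter and 0 with the lane block, against 672 in the main fit. Of the 2 called in other cell types, 1 was called with either sex term and with the gene-span correction, and 0 with no filter and with the lane block. Over all genes in ciliated cells, 71 were called with no filter and 163 with the lane block, against 513. In adventitial fibroblasts these were 13 and 16, against 292. Leaving out each mouse gave 0 to 1 members in gCap cells and in the other types, and 0 to 657 of all genes in gCap cells. The pathway list gave 14 gene-by-type calls, against 0 with no filter, 3 with the lane block, 7 with the gene-span correction, 26 with summed UMIs, 32 with sex by Xist and Ddx3y as a term, and 2 to 15 when a mouse was left out (2 without C2, D2 or D5, 5 without F3, 6 without C5). The count over all genes in gCap cells also moved, from 672 to 0 with no filter and 0 with the lane block. It was 251 with the gene-span correction, 1249 with summed UMIs and 1277 with that sex term. The cause of these shifts was not tested, except that no filter tests more genes. In AT1 cells, aerocytes, arterial, venous and lymphatic cells the count of members called was 0 in every alternative.

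Some differences near 0, none of them called, changed sign. Vegfc in venous cells became -0.0115 with median centring and -0.0800 with the gene-span correction, and ran from -0.12 to 0.12 without single mice. With the span correction Flt1 in venous cells became -0.0133 and Nrp2 in venous cells -0.0708 (-0.11 to 0.13 without single mice), and Vegfa in lymphatic cells became 0.0470 with summed UMIs. Without single mice, Vegfc in gCap cells ran from -0.10 to 0.0348, Flt4 in arterial cells from -0.0325 to 0.0987, Flt4 in venous cells from -0.0173 to 0.0511 and Vegfb in lymphatic cells from -0.0260 to 0.14. In simulated data of this design 36% of 1.5-fold changes were called in AT1 cells and 26% in arterial cells, and lymphatic cells were not simulated. Taking out cells with markers of another class removed at most 0.525% of the gCap cells of a mouse, so that alternative bears little on them. Of the AT1 cells it removed 16.3% in F1 and 4.29% to 13.1% in the other mice.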
